A study of Mus musculus with 12 samples.

Results

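The heart's chambers differ in the contractile proteins, channels and transcription factors that their cardiomyocytes use, and 10 genes that mark the atria or the ventricles were examined here in the hearts of mice with or without cardiomyocyte ADAM17. They were 9 genes higher in atrial than in ventricular cardiomyocytes or tied to atrial development (Sln, Myl7, Myl4, Bmp10, Dkk3, Fgf12, Stard10, Nr2f2 and Tbx5) and 1 ventricular gene, Myl2. They are 10 of the 53465 genes in the count table, and all 10 were among the 16101 genes with enough counts to be tested. The genes were chosen on their own levels in these 12 libraries, so those levels are given as a description. The genes also appear below in fits made across all tested genes, and those fits are not independent of the choice and support nothing about the genes.

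RNA was sequenced from the hearts of 12 male mice, 3 in each of 4 groups, to learn how loss of the sheddase ADAM17 in cardiomyocytes alters the response to doxorubicin, an anthracycline that damages heart muscle. A17fl/fl mice carry loxP-flanked Adam17 alleles and no Cre, and A17α-MHCKO mice carry the same alleles with a Cre driven by the α-MHC promoter, which is active in cardiomyocytes and not in the other cells of the heart; the 2 genotypes were littermates. The floxed line has a C57BL/6J background. The mice were 8 weeks old at the start and were injected intraperitoneally 4 times at weekly intervals with doxorubicin (DOX, 5 mg/kg each time, 20 mg/kg in all) or with normal saline (NS). The hearts were taken 4 weeks after the last injection. The floxed groups were A17fl/fl + NS and A17fl/fl + DOX. The knockout groups were A17α-MHCKO + NS and A17α-MHCKO + DOX. The libraries held 15950717 to 21725076 counts. Adam17 itself lay between 43.6 and 70.9 CPM (counts relative to library size, with TMM scaling between libraries) in the A17fl/fl libraries and between 27.9 and 36.8 CPM in the A17α-MHCKO libraries.

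An adult mouse atrium and ventricle share most of their sarcomere but use different myosin light chains: Myl7 and Myl4 encode the atrial regulatory and essential chains, and Myl2 encodes the ventricular regulatory chain. Sln encodes sarcolipin, a small inhibitor of the calcium pump of the sarcoplasmic reticulum that mouse atria make and ventricles hardly do. Bmp10 encodes a secreted ligand made in the adult mainly by the right atrium. Nr2f2 and Tbx5 encode transcription factors of chamber development; Nr2f2 is also made by venous and lymphatic endothelium, and Tbx5 by the left ventricle. Dkk3 encodes a secreted glycoprotein, Fgf12 an intracellular modulator of sodium channels, and Stard10 a lipid transfer protein.

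The tissue is labelled heart, and the study's text speaks both of left ventricles and of myocardial tissue. Atrial RNA was abundant in 10 of the 12 libraries and nearly absent in the other two, which were replicates 1 and 3 of A17fl/fl + NS. In these 2 libraries Sln had 0 and 0 counts, Myl7 had 0 and 1, Fgf12 had 1 and 1, and Bmp10 had 0 and 5. A17fl/fl + NS replicate 1 also stood apart over all tested genes: it lay at -120 on the first principal component of log2 CPM, which held 35.2% of the variance, while the other 11 lay between -12.9 and 28.4, and the summed level of 9 pan-cardiomyocyte genes reached 21233 CPM there, the lowest of the 12. Since RNA came from bulk tissue, fewer atrial cells and less RNA per atrial cell cannot be told apart in any value below.

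The promoters of 3 atrial genes are shown because Myl7 and Myl4 moved together over the libraries and Bmp10 followed them only loosely. RefSeq promoters (build GRCm38.p6) matched 7 of the 10 genes by symbol; none was listed for Sln, Dkk3 and Tbx5. Each sequence is the 250 bases before the transcription start, 5′ to 3′ on the gene's strand, and capitals mark matches on either strand to AGGTGT (bound by T-box factors), AGGTCA (bound by nuclear receptors), AGATAA (bound by GATA factors) or the CArG box (bound by serum response factor). The Myl7 window is chr11:5898783-5899032 on the minus strand, the Myl4 window chr11:104550413-104550662 on the plus strand and the Bmp10 window chr6:87428744-87428993 on the plus strand.
Myl7: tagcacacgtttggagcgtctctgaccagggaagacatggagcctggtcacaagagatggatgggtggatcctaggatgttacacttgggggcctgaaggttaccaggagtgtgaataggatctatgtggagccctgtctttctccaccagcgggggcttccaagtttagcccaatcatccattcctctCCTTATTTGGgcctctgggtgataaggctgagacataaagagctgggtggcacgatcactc
Myl4: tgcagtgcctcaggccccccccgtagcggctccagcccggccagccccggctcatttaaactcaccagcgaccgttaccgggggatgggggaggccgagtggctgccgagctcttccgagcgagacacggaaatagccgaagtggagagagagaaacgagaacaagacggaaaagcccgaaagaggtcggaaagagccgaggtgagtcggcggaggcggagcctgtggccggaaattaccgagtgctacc
Bmp10: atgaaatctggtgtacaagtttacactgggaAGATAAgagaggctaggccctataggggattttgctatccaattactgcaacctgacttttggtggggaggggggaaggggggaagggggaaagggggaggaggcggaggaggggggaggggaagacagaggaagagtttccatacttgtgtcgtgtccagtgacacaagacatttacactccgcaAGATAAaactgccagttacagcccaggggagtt

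The Myl7 window held a CArG box at -61 to -52 relative to the start, a motif found in 1.47% of 32851 promoter windows of the same length. The Bmp10 window held AGATAA 2 times, and 9.99% of all windows held it. The Myl4, Stard10 and Nr2f2 windows held none of the 4 motifs. AGGTGT was in 11.8% and AGGTCA in 14% of all windows, and among the members each was found in 1 of the 4 Fgf12 windows, with AGGTCA also in 1 of the 2 Myl2 windows and AGATAA in the other. A match is a description of the letters and says nothing of which factor acts there.

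Sln, Myl7, Myl4, Dkk3, Fgf12 and Stard10 rose and fell together over the libraries. Myl7 was at 0, 1019 and 0.0626 CPM in A17fl/fl + NS replicates 1 to 3 and at 396, 260 and 193 CPM in A17fl/fl + DOX. It was at 464, 769 and 666 CPM in A17α-MHCKO + NS and at 125, 186 and 308 CPM in A17α-MHCKO + DOX. The A17fl/fl + NS group thus held both the highest and the lowest Myl7 level of the series, and its range covered the other 3 groups. Those 3 were ordered A17α-MHCKO + NS, A17fl/fl + DOX and A17α-MHCKO + DOX by their medians of 666, 260 and 186 CPM. The saline knockouts lay wholly above both doxorubicin groups, and the ranges of the doxorubicin groups overlapped. The share of all tested genes with such a separation from both groups was not counted.

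**Figure D1:**
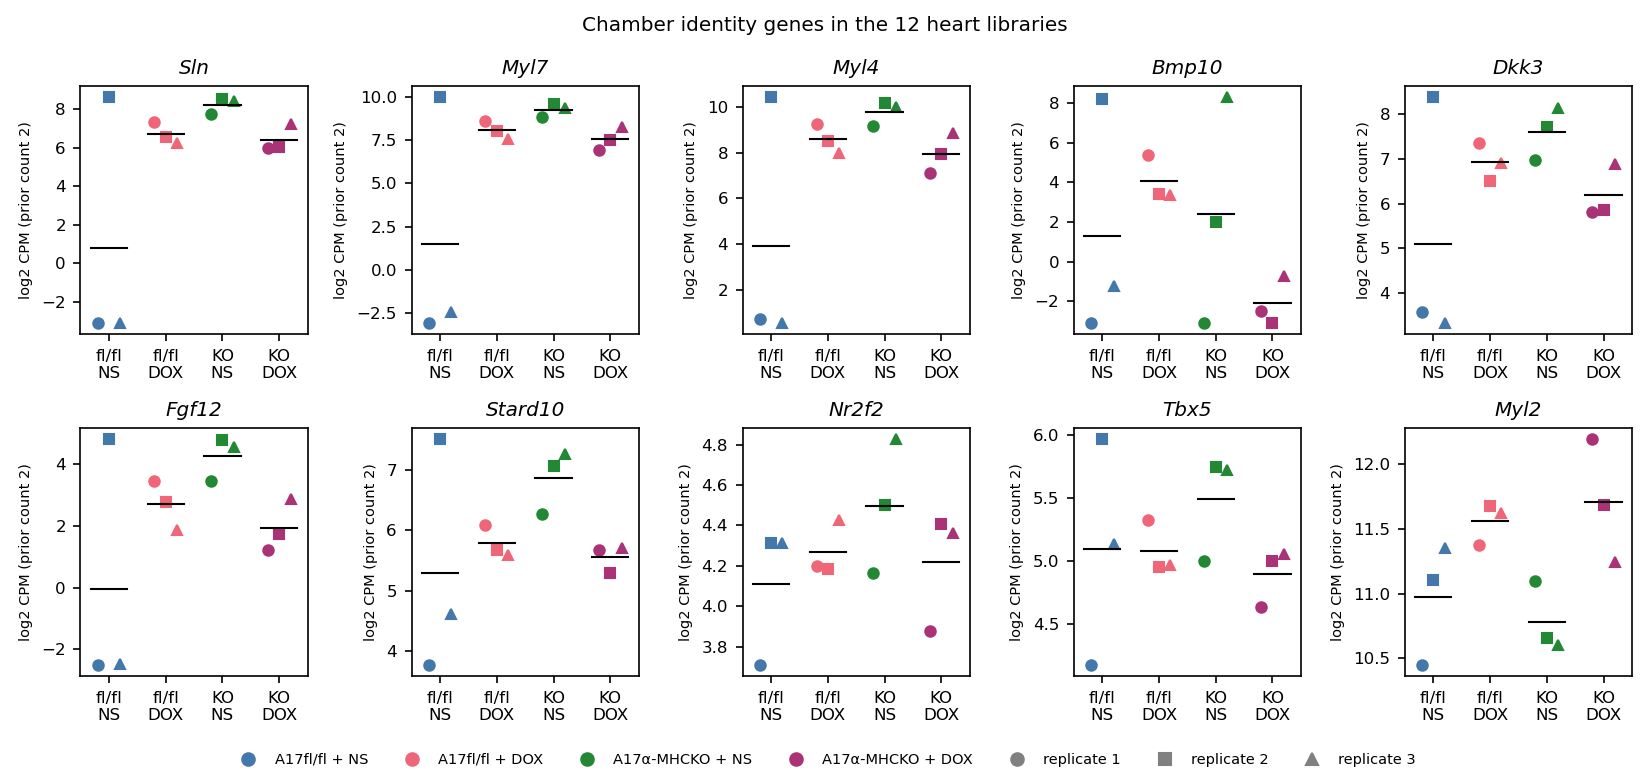
Log2 CPM of each chamber identity gene (vertical axes, prior count 2, each with its own scale) in the 4 groups (horizontal axes; colours are groups, symbols are replicates, bars are group means). In A17fl/fl + NS, 7 of the 9 atrial genes were high in replicate 2 and far lower in replicates 1 and 3, and Myl2 lay higher after DOX in both genotypes.

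Sln, the calcium pump inhibitor, was at 0, 392 and 0 CPM in A17fl/fl + NS, 162, 93.1 and 75.6 CPM in A17fl/fl + DOX, 212, 365 and 343 CPM in A17α-MHCKO + NS and 63.8, 65.0 and 151 CPM in A17α-MHCKO + DOX. Within A17fl/fl + NS, Sln was at least 2262-fold higher in replicate 2 than in replicate 1 and at least 2084-fold higher than in replicate 3, taking 3 counts as the floor of a library at 0. Myl4, the atrial essential light chain, was at 1.56, 1363 and 1.38 CPM in A17fl/fl + NS, 606, 361 and 254 CPM in A17fl/fl + DOX, 577, 1131 and 1016 CPM in A17α-MHCKO + NS and 137, 242 and 458 CPM in A17α-MHCKO + DOX. Both genes thus had the same library highest and the same 2 libraries lowest as Myl7 did. For Sln, as for Myl7, the saline knockouts lay above all doxorubicin libraries, whereas for Myl4 they overlapped with A17fl/fl + DOX. This separation is a description, without a share of all genes beside it.

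Dkk3 and Stard10 kept a level of their own where Myl7 had at most 1 count, and Fgf12 did not. Dkk3 was at 11.8 and 10.02 CPM in those 2 libraries, and at 56.3 to 331 CPM in the other 10. Stard10 was at 13.6 and 24.2 CPM there and at 39.3 to 182 CPM elsewhere. Fgf12, the sodium channel modulator, was at 0.0577 and 0.0626 CPM there, 1 count in each library, and at 2.20 to 27.9 CPM elsewhere. Dkk3 and Stard10 RNA was thus present in every library, including those in which Myl7 and Sln had at most 1 count.

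Over the 10 libraries with more than 100 Myl7 counts, the 15 pairs among these 6 genes had a median Spearman's rho of 0.952 (0.867 to 1) and a median Pearson's r of 0.936 on log2 CPM. The 10 libraries share no animal, but they share the scaling between libraries, and the 6 genes were chosen for this pattern, so no p is given. All 12 libraries gave a median rho of 0.965 for the same pairs. The 2 libraries near 0 form a cluster of their own, too small for a correlation.

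Per length, Sln and Myl4 kept a narrow ratio to Myl7 in the same 10 libraries. The FPKM (fragments normalised to gene length and depth) of Sln was 15.7% to 23.0% of that of Myl7, a 1.47-fold range, and that of Myl4 was 11.6% to 16.2%, a 1.39-fold range. In those libraries Myl7 itself ran from 205 to 1730 FPKM. In CPM, which is not scaled by length, Myl4 lay above Myl7 in each of them, for example 1363 against 1019 in A17fl/fl + NS replicate 2. Which of Myl4 and Myl7 was higher thus depended on the lengths behind the deposited FPKM, which were not checked. Dkk3 was at 4.73% to 10.9% of Myl7, Stard10 at 1.62% to 3.996% and Fgf12 at 0.330% to 0.683%, ranges of 2.30-, 2.46- and 2.07-fold. The ratio of Tbx5 to Myl7 varied 3.24-fold and that of Nr2f2 6.04-fold. The ratios of Sln and Myl4 to Myl7 were therefore steadier than those of Dkk3, Stard10 or Fgf12 to Myl7. Ratios to Sln or Myl4 were not taken.

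**Figure D2:**
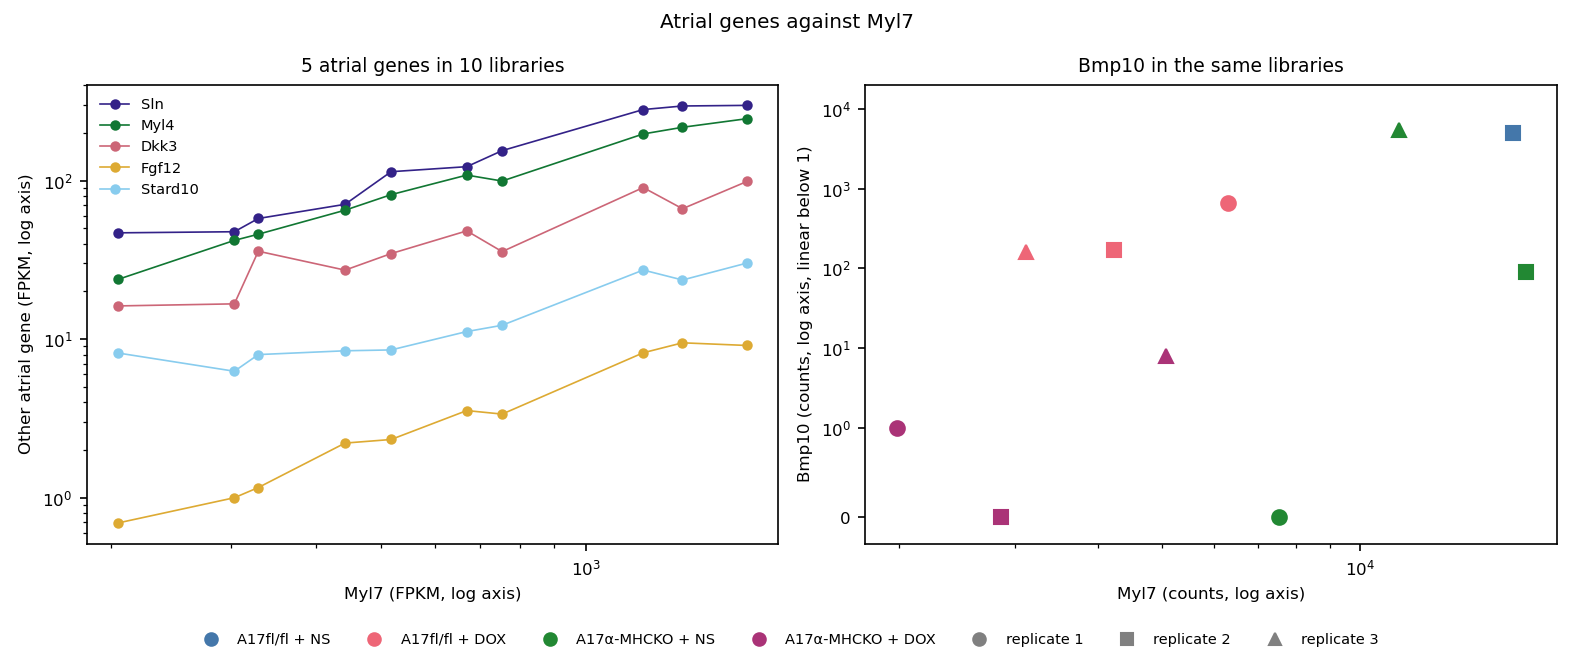
Left, FPKM of Sln, Myl4, Dkk3, Fgf12 and Stard10 against FPKM of Myl7 in the 10 libraries with over 100 Myl7 counts, both axes log. Right, counts of Bmp10 against counts of Myl7 in the same libraries, vertical axis log above 1 and linear below; Bmp10 ran from 0 to 5379 counts and had at most 8 in 4 of the 10 libraries.

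Bmp10, the right atrial ligand, followed the other atrial genes only loosely. It had 0, 4978 and 5 counts in A17fl/fl + NS, 668, 169 and 162 in A17fl/fl + DOX, 0, 91 and 5379 in A17α-MHCKO + NS and 1, 0 and 8 in A17α-MHCKO + DOX. Its level stood high in only 2 libraries, A17fl/fl + NS replicate 2 with 298 CPM and A17α-MHCKO + NS replicate 3 with 313 CPM, and at most 42.0 CPM in the others. In A17α-MHCKO + NS replicate 1 it had 0 counts beside 7524 counts of Myl7, and in A17α-MHCKO + NS replicate 2 it had 91 counts beside 17814. Within A17α-MHCKO + NS, replicate 3 was at least 1688-fold above replicate 1.

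The ratio of Bmp10 to Myl7 showed the same split. In FPKM it was 3.84% of Myl7 in A17fl/fl + NS replicate 2 and 6.17% in A17α-MHCKO + NS replicate 3. It lay between 0.525% and 1.39% in A17fl/fl + DOX, was 0% and 0.0671% in the other two saline knockouts, and was 0.00662%, 0% and 0.0207% in A17α-MHCKO + DOX. In 4 libraries Myl7 was thus abundant while Bmp10 had at most 8 counts. Over the 10 libraries, rho between Bmp10 and the 6 genes that varied together ran from 0.552 to 0.697, and it was 0.503 with Tbx5 and 0.321 with Nr2f2.

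Nr2f2 and Tbx5, the 2 transcription factors, varied less. Nr2f2 ranged from 13.0 to 28.2 CPM over the 12 libraries, a 2.18-fold range, and was at 19.7 CPM both in the A17fl/fl + NS library richest in atrial RNA and in replicate 3 of that group, which had 1 count of Myl7. Tbx5 ranged from 18.0 to 62.5 CPM, a 3.47-fold range. Its highest level was in A17fl/fl + NS replicate 2, and A17fl/fl + NS replicate 3 still held 35.1 CPM. Over the 10 libraries the median rho with the other atrial members was 0.909 for Tbx5 and 0.345 for Nr2f2. By the standard deviation of log2 CPM over the 12 libraries, Myl7 ranked 1st of the 16101 genes tested, Bmp10 3rd, Sln 4th, Myl4 6th, Fgf12 24th and Dkk3 155th, whereas Tbx5 ranked 4186th and Nr2f2 9191st.

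Myl2, the ventricular regulatory light chain, was high in every library, and among the libraries rich in atrial RNA it was lower where the atrial genes were higher. It was at 1400, 2205 and 2616 CPM in A17fl/fl + NS, 2657, 3269 and 3155 CPM in A17fl/fl + DOX, 2185, 1616 and 1552 CPM in A17α-MHCKO + NS and 4664, 3287 and 2422 CPM in A17α-MHCKO + DOX. The doxorubicin libraries lay wholly above the saline libraries in each genotype, by the closest margin in the floxed mice (2657 against 2616 CPM). Over the 10 libraries with more than 100 Myl7 counts, rho between Myl2 and the 9 atrial members ran from -0.891 to -0.430, with a median of -0.855. Over all 12 it ran only from -0.406 to -0.133, and Pearson's r was above 0 for Sln (0.13), Myl7 (0.17) and Myl4 (0.08). The 2 libraries near 0 for Myl7 did not continue that order: Myl2 had its lowest level of all in replicate 1.

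The balance of the 2 regulatory light chains differed widely between hearts. Per length, Myl7 was at 239% of Myl2 in A17fl/fl + NS replicate 2 and at 0% and 0.0124% in replicates 1 and 3. It was at 110%, 246% and 222% in A17α-MHCKO + NS, at 77.2%, 41.2% and 31.7% in A17fl/fl + DOX and at 13.9%, 29.2% and 65.8% in A17α-MHCKO + DOX. In 4 of the 12 libraries, all after saline, the atrial chain therefore exceeded the ventricular one in FPKM. In counts, which are not scaled by length, Myl7 lay below Myl2 in all 12, for example 17028 against 36859 in A17fl/fl + NS replicate 2. The excess in FPKM thus depended on the scaling by gene length, and the lengths behind the deposited FPKM were not checked. Neither chain is therefore read as the more abundant transcript. In FPKM, no doxorubicin library reached 100% of Myl2.

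Differences between groups were fitted with edgeR's quasi-likelihood test over all 16101 genes, and a gene was called by the study's limits, which ask for a log2 fold change beyond 1 in either direction, p below 0.05 before adjustment and a mean FPKM above 1 in one of the groups. DESeq2 called 0 members in each of the 5 comparisons, and 0 members had an adjusted p under 0.05 by edgeR's test. DESeq2 can withhold p from a gene with an outlying count, and such a gene was taken as not called. How many members were without a p is not given here, so its 0 is no second negative test. DOX in A17fl/fl mice gave 0 of 10 members called, where 2.82% of all tested genes were called, and 0 members at an unadjusted p under 0.05. The log2 fold changes of the 9 atrial genes ran from -2.25 for Bmp10 (SE 2.22) to 0.14 for Nr2f2 (SE 0.22), with a median of -0.24 beside -0.04 for all genes. The fold change was -0.26 for Myl7 (SE 1.77) and 0.55 for Myl2 (SE 0.28). The groups did not overlap for 1 member, Myl2, and for 13.3% of all tested genes. The standard errors of the atrial light chains and Sln exceeded 1.6 on the log2 scale. All 4 groups shared 1 estimate of the spread for each gene, and within A17fl/fl + NS these genes differed more between libraries than in any other group.

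For DOX in A17α-MHCKO mice the fitted fold changes were below 0 for all 9 atrial genes and above 0 for Myl2, with a median of -1.62 over the atrial genes beside 0.00 for all genes. The log2 fold change was -1.72 for Sln (SE 1.70), -1.62 for Myl7 (SE 1.81), -1.70 for Myl4 (SE 1.65), -2.28 for Fgf12 (SE 1.37), -1.41 for Dkk3 (SE 1.03) and -1.35 for Stard10 (SE 0.73). It was 0.95 for Myl2 (SE 0.28), -0.62 for Tbx5 (SE 0.36) and -0.29 for Nr2f2 (SE 0.22). Of the 10 members, 1 was called, Bmp10 (lower), where 0.658% of all tested genes were called, and 2 had an unadjusted p under 0.05, Bmp10 and Myl2. The fitted fold change of Bmp10 was -9.08 (SE 3.44) and rests on 1, 0 and 8 counts in A17α-MHCKO + DOX. Saline and doxorubicin knockouts did not overlap for 7 of the 10 members, Sln, Myl7, Myl4, Dkk3, Fgf12 and Stard10 lower and Myl2 higher after DOX, and for 16.9% of all tested genes. Since the members were chosen on these levels, nothing is read from these counts.

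Between genotypes, 0 of 10 members were called after NS, where 2.99% of all tested genes were called, and 0 after DOX, where 0.205% were called, with 0 members at an unadjusted p under 0.05 in either. After NS the median log2 fold change of the atrial genes was 0.80, beside -0.03 for all genes, and the groups overlapped for every member, against 10.9% of all genes without overlap. After DOX the median was -0.46, beside 0.01 for all genes, and only Bmp10 did not overlap, being lower in the knockouts, against 14.1% of all genes without overlap. In the interaction of genotype and doxorubicin 0 of 10 members were called, with 0 at an unadjusted p under 0.05, where 2.13% of all tested genes were called. The comparison of DOX in A17α-MHCKO mice and that of genotypes after NS share the saline knockouts.

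**Figure D3:**
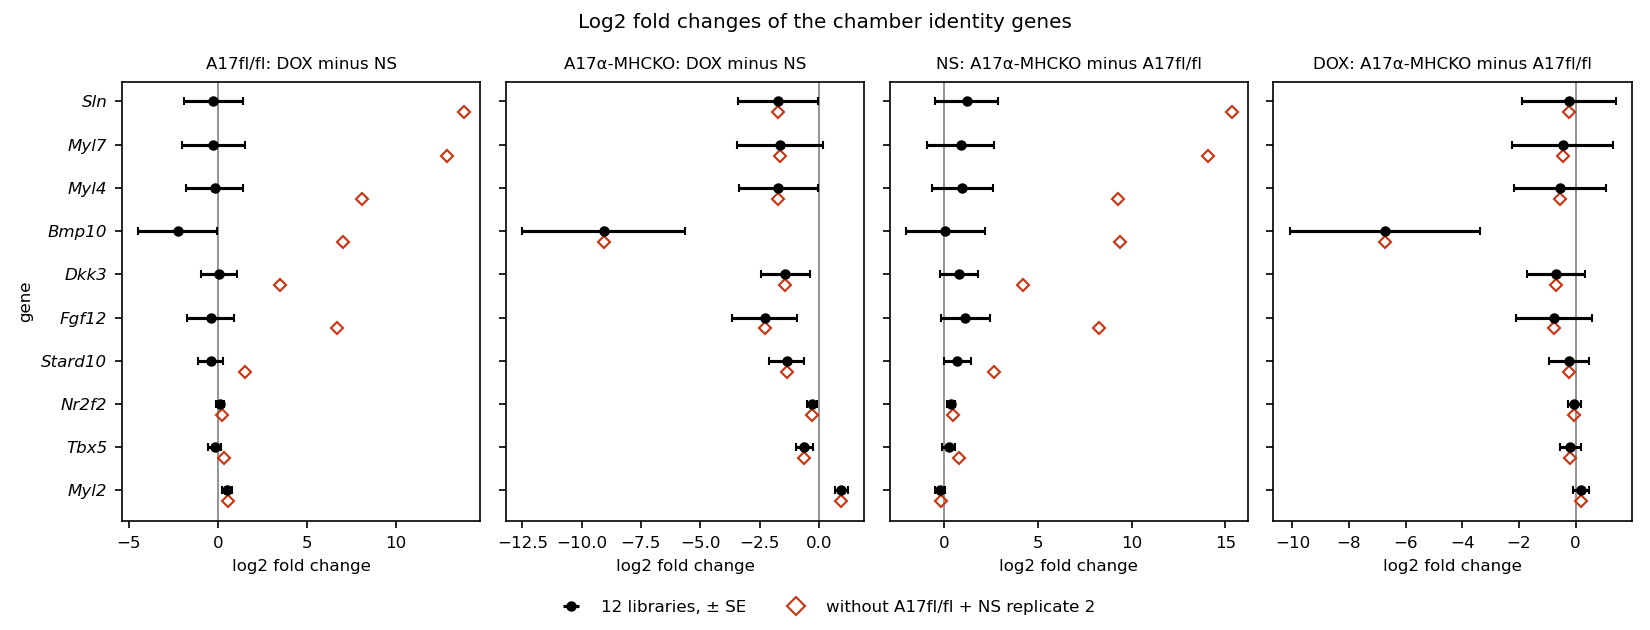
Log2 fold changes of the 10 genes in 4 comparisons (horizontal axes), with all 12 libraries (black, bars are standard errors) and without A17fl/fl + NS replicate 2 (open diamonds). Without that library the fold changes of Sln and Myl7 against A17fl/fl + NS exceeded 12, and those of Sln, Myl7, Bmp10 and Fgf12 rest on 5 counts or fewer in the remaining A17fl/fl + NS libraries, so they are no measure of size; those between A17α-MHCKO groups hardly moved.

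The calls depended on which libraries were fitted, most of all on 1 of them. Without A17fl/fl + NS replicate 2, whose Myl7 level was the highest of all, 7 members (Sln, Myl7, Myl4, Bmp10, Dkk3, Fgf12 and Stard10) were called in each of 4 fits: DOX in A17fl/fl, higher; DOX in A17α-MHCKO, lower; genotype after NS, higher; and the interaction, lower. Between 0.906% and 6.48% of all tested genes were called in those 4 fits. Without A17fl/fl + NS replicate 1, in contrast, 0 members were called for DOX in A17fl/fl, genotype after NS and the interaction, and 3 for DOX in A17α-MHCKO (Bmp10, Fgf12 and Stard10). In these 4 fits without replicate 1, 0.878% to 1.71% of all tested genes were called. The fold change of Myl4 for DOX in A17fl/fl mice was -0.16 with all libraries and 8.11 without replicate 2. When only the 2 knockout groups were fitted, 6 members were called lower after DOX (Sln, Myl7, Myl4, Dkk3, Fgf12 and Stard10). In that fit 1.06% of all tested genes were called. The call of Bmp10 for DOX in A17α-MHCKO mice was lost without A17α-MHCKO + NS replicate 3, the library with 5379 Bmp10 counts, where its fold change was -3.42, and without any 1 of the A17α-MHCKO + DOX libraries. Myl2 was called for DOX in A17α-MHCKO mice without A17α-MHCKO + NS replicate 1 or without A17α-MHCKO + DOX replicate 3, where 0.751% and 0.74% of all tested genes were called. For genotype after DOX, Bmp10 was called lower in the knockouts without A17fl/fl + NS replicate 1 or 2 or A17α-MHCKO + NS replicate 1 or 3. In those fits 0.195% to 0.244% of all tested genes were called.

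Other genes of the atria were written as a list of 13, and several varied with the same libraries. Mybphl, a myosin binding protein of atrial muscle, had 9 and 3 counts in the 2 libraries with at most 1 Myl7 count and 121 to 3183 counts in the other 10. Nppa, which encodes atrial natriuretic peptide and also rises in stressed ventricles, was at 1019.6 and 331 CPM in those 2 libraries and at 1153 to 6024 CPM elsewhere. Of the 13 genes, 9 had a rho over 0.7 with the mean log2 CPM of Sln, Myl7, Myl4 and Bmp10 over the 12 libraries. Kcna5, the gene of a potassium channel, was at 0.09. Clu and Cacna1d were at 0.10 and 0.36 and had their highest levels, 1647 and 8.77 CPM, in A17fl/fl + NS replicate 1. For this list and those below, rho includes the 2 libraries near 0. The mean, called the atrial index below, also includes Bmp10, which followed the other atrial genes only loosely. How many of all tested genes had a rho over 0.7 was not counted, so these counts are a description only. By edgeR's test 0 of the 13 passed an adjusted p of 0.05 in any comparison. Gja5, which encodes connexin 40, was at 16.97 CPM in A17fl/fl + NS replicate 1, with 0 counts of Myl7. In replicate 2, richest in Myl7, it was at 17.7 CPM, and its rho with the atrial index was 0.699. Which cells made it was not tested. By edgeR's test Gja5 met the limits in 3 comparisons: lower after DOX in A17α-MHCKO mice (log2 fold change -1.16, adjusted p = 0.712), higher in knockouts after NS (1.29, adjusted p = 0.338) and lower in the interaction (-1.72, adjusted p = 0.828). The first was lost without A17α-MHCKO + NS replicate 2 (-0.79) or A17α-MHCKO + DOX replicate 1 (-0.94), and the second without A17α-MHCKO + NS replicate 2 (0.93). The median log2 fold change of the list was -0.81 for DOX in A17α-MHCKO mice, beside 0.00 for all genes tested.

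Other ventricular genes were written as a list of 8. By edgeR's test 0 of the 7 tested passed an adjusted p of 0.05, and Hand1 had at most 3 counts. Irx5, a repressor gene of the ventricular wall, was at 5.43, 5.66 and 6.45 CPM in A17α-MHCKO + NS and 13.3, 13.6 and 15.7 CPM in A17α-MHCKO + DOX, and was the only one of the list to meet the limits (log2 fold change 1.28, adjusted p = 0.205). In the floxed mice Irx5 went from 5.71, 5.45 and 7.83 to 10.3, 11.02 and 11.2 CPM (0.78, adjusted p = 0.324). Irx4, a ventricular transcription factor gene, was at 20.3, 18.9 and 24.8 CPM in A17fl/fl + NS and 36.0, 39.3 and 43.3 CPM in A17fl/fl + DOX (0.89, adjusted p = 0.222). Myl3, the ventricular essential light chain, had a log2 fold change of 0.63 for DOX in A17α-MHCKO mice (adjusted p = 0.712). For DOX in A17α-MHCKO mice, 4 of the 7 did not overlap (Myl3, Irx4, Irx5 and Pln, all higher after DOX); for DOX in A17fl/fl mice it was 2 (Irx4 and Irx5). Of all tested genes, 16.9% and 13.3% did not overlap in these comparisons. Kcnip2, a potassium channel subunit gene, had a log2 fold change of -0.45 (SE 0.44) for DOX in A17α-MHCKO mice, and Hey2, a repressor gene of the ventricles, had 0.12 (SE 0.30) there and -0.06 (SE 0.30) in A17fl/fl mice. The list's median was 0.32 in A17fl/fl mice, beside -0.04 for all genes, and 0.37 in A17α-MHCKO mice, beside 0.00.

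**Figure D4:**
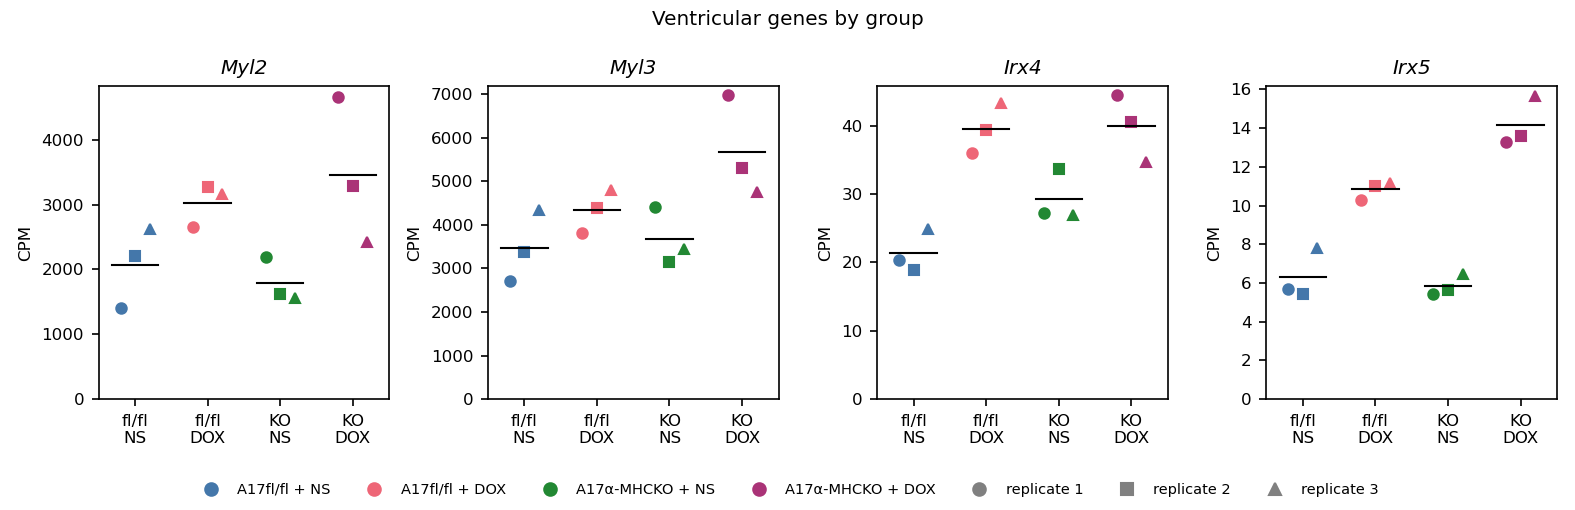
CPM (vertical axes, from 0) of Myl2, Myl3, Irx4 and Irx5 in the 4 groups; colours are groups, symbols are replicates and bars are group means. Doxorubicin libraries lie above saline libraries of the same genotype for Myl2, Irx4 and Irx5, and none of the 4 genes passed an adjusted p of 0.05; Myl3, Irx4 and Irx5 were chosen for the plot after their values were seen.

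Genes of the pacemaker and conduction tissue, a list of 11, summed to 113 to 226 CPM, and 0 of the 9 tested were called or passed an adjusted p of 0.05 by edgeR's test. Of the 11, 7 had their highest level in A17fl/fl + NS replicate 2. How many of all tested genes were highest in that library was not counted, so nothing is read from this number. Hcn4, the main pacemaker channel gene, was at 16.8 CPM there and at 2.25 CPM in replicate 1 of that group, its lowest level. Tbx3, of the same list, was instead lowest in A17fl/fl + NS replicate 2, at 10.3 CPM. Tbx18 was highest in replicate 1 of that group and Smoc2 in replicate 3. Isl1 and Vsnl1, markers of the sinus node, had at most 12 and 33 counts in any library.

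Some markers of tissues other than heart muscle varied with the atrial genes, and their part in the results was not tested. Of 8 mesothelial genes, the covering of the heart's surface, 6 had a rho over 0.7 with the atrial index over the 12 libraries. Of the same 8, 7 were highest in A17fl/fl + NS replicate 2. The share of all tested genes was not counted for either number. The summed level of the 8 genes was 144.6 CPM in that library and 16.4 and 5.76 CPM in replicates 1 and 3 of its group. At 3 counts or fewer were 6 of the 8 in each of those 2 and in A17α-MHCKO + DOX replicate 1. The sum was 20.7 to 42.3 CPM in A17fl/fl + DOX, 15.4 to 88.8 CPM in A17α-MHCKO + NS and 4.09 to 24.4 CPM in A17α-MHCKO + DOX. Upk3b and Msln, which define mesothelium, had 0 and 0 counts in A17fl/fl + NS replicate 1. Wt1, of the same list, had its highest level in that library, 154 counts or 8.89 CPM, and a rho of -0.12 with the atrial index. Krt19, a keratin gene, was lower after DOX in A17α-MHCKO mice (log2 fold change -2.68, adjusted p = 0.767), the only one of the 8 to meet the limits; without A17α-MHCKO + NS replicate 2 or 3, or A17α-MHCKO + DOX replicate 1 or 3, it did not meet them (-2.68 to -2.03).

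Adipocyte genes also differed between the same libraries. The sum of 8 genes was 2.65 and 0.752 CPM in A17fl/fl + NS replicates 1 and 3 and 91.1 CPM in replicate 2, and it was 17.9 to 84.0 CPM in A17fl/fl + DOX, 20.2 to 116 CPM in A17α-MHCKO + NS and 21.1 to 48.0 CPM in A17α-MHCKO + DOX. Of the 8, 3 had a rho over 0.7 with the atrial index. Adipoq, the adiponectin gene, and Plin1, a lipid droplet gene, had 0 counts in A17fl/fl + NS replicate 3. In A17α-MHCKO + DOX replicate 1, with the lowest Myl7 of the 10 libraries, adipocyte genes were at 48.0 CPM and mesothelial genes at 4.09 CPM, so the 2 lists did not share one order. Genes of venous and lymphatic endothelium, which also makes Nr2f2, summed to 368 to 578 CPM over all libraries, and 1 of 7 had a rho over 0.7. Skeletal muscle genes summed to at most 6.91 CPM, with Tnni2 the only one of 7 to meet the limits, higher in knockouts after NS (1.37, adjusted p = 0.313) and lower in the interaction (-1.28, adjusted p = 0.828). Of 9 pan-cardiomyocyte genes, 0 had a rho over 0.7, and Actc1, cardiac actin, alone met the limits, higher after DOX in A17fl/fl mice (1.02, adjusted p = 0.358), which was lost without A17fl/fl + NS replicate 1 (0.77) or 3 (0.92) or A17fl/fl + DOX replicate 2 (0.98).

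**Figure D5:**
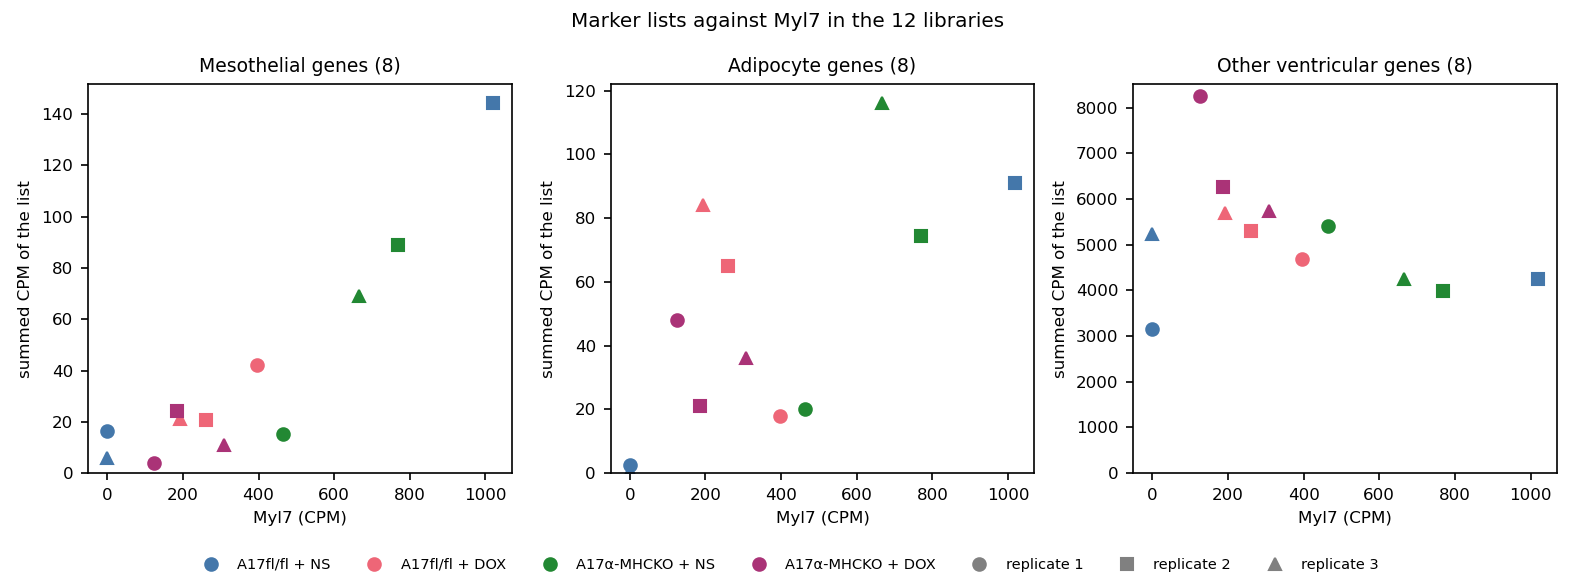
Summed CPM of 8 mesothelial, 8 adipocyte and 8 other ventricular genes (vertical axes, from 0) against CPM of Myl7 (horizontal axes) in the 12 libraries; colours are groups and symbols are replicates, with A17fl/fl + NS replicate 3 partly hidden near 0 in the middle panel. The mesothelial sum was highest, at 144.6 CPM, in the library with the most Myl7, and the ventricular sum ran from 3144 to 8250 CPM.

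Among 14450 tested genes outside the members with a mean over 1 CPM, 60 had a rho over 0.9 and 9 a rho under -0.9 with the mean log2 CPM of Sln, Myl7, Myl4 and Bmp10 over the 12 libraries. Bmp10 weighs on this mean. In A17α-MHCKO + NS replicate 1, with 0 counts of Bmp10, the mean was 5.67, below the 6.29 to 7.65 of A17fl/fl + DOX. Myl7 was nonetheless higher in that library, at 464 CPM against 193 to 396 CPM. Likeness below is therefore to this mean and not to Myl7 alone. The 10 most alike were Cacna1h, Gm26794, Slc39a8, Rgs6, Igfbpl1, Igfbp5, Creb3l2, Rhbdl3, Itih2 and Myl1, with a rho of 0.944 to 0.972, and of 0.915 to 0.988 in the 10 libraries with more than 100 Myl7 counts. Cacna1h, the gene of a T-type calcium channel, was at 4.50, 64.9 and 8.33 CPM in A17fl/fl + NS, 35.7, 25.1 and 28.4 CPM in A17fl/fl + DOX, 20.0, 35.5 and 52.5 CPM in A17α-MHCKO + NS and 11.5, 15.9 and 32.001 CPM in A17α-MHCKO + DOX. It thus had its highest level in the library with the most Myl7 and its lowest in a library without it. Rgs6, a brake on muscarinic signalling, ranged from 1.96 to 15.8 CPM. Igfbp5, an insulin-like growth factor binding protein gene, ranged from 91.4 to 503 CPM. Slc39a8 encodes a zinc transporter and Myl1 an essential myosin light chain.

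The 5 genes of the opposite order were Dctn2, Anxa4, Gpihbp1, Uchl3 and Setd3, with a rho of -0.965 to -0.923. Gpihbp1, the capillary anchor of lipoprotein lipase, was at 213, 75.7 and 157 CPM in A17fl/fl + NS, 109, 109 and 107 CPM in A17fl/fl + DOX, 147, 77.1 and 90.4 CPM in A17α-MHCKO + NS and 155, 138 and 120 CPM in A17α-MHCKO + DOX. Its 3 lowest levels fell in the 3 libraries with the most Myl7. Dctn2, a dynactin subunit gene, ranged only from 99.1 to 134 CPM, so the order was close while the differences were small. These genes were picked by the order of their levels in the same 12 libraries, so no p is given.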

How the data were processed

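Stranded mRNA libraries from 12 mouse hearts were analysed. The authors deposited 1 table of gene counts and FPKM (StringTie), neither altered here; per the labels' processing notes they used CASAVA 1.8, HISAT2, SAMtools 1.3.1, edgeR and build GRCm39. The counting's strand setting is not given in the sources used here. Members and gene lists were chosen with earlier results of these data known; no column was left unmapped. Groups and replicate numbers came from titles, and p-values rest on the spread between the 3 hearts of a group, pooled over all 4 groups. Counts were filtered with filterByExpr, scaled by TMM and fitted with edgeR 4.0.16 (glmQLFit, glmQLFTest; 1 mean per group, Benjamini-Hochberg over 16101 genes); log2 CPM used a prior count of 2. Named genes were the 10 members, genes of the atrial, ventricular and pacemaker lists that passed, up to 3 of each other list by range, and the 10 most and 5 least alike in order; other list genes were named after their values were seen. The floor of 3 counts covers counting error only, whereas the standard errors come from the fit and include the spread between hearts. The fit was tested on simulated data. DESeq2, other scalings, filters and left-out libraries were alternatives. Replicates were not duplicates (chi-square per degree of freedom 12.0 or more). RefSeq promoters (GRCm38.p6) were matched by symbol; no coordinates were converted. Some genes of the lists are not reported here singly.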

Additional observations from a re-analysis of the deposited data

Results flagged for a closer look

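In the interaction of genotype and doxorubicin, 343 of the 16101 tested genes (2.13%) met the study's limits on fold change, unadjusted p and FPKM; 0 were members and 2 were genes of the other written lists, Gja5 and Tnni2. For Gja5 (connexin 40) the interaction was -1.72 on the log2 scale (SE 0.57, edgeR adjusted p = 0.828): it was at 16.97, 17.7 and 9.84 CPM in A17fl/fl + NS, 24.6, 25.9 and 15.5 CPM in A17fl/fl + DOX, 16.4, 52.8 and 39.4 CPM in A17α-MHCKO + NS and 11.01, 16.2 and 21.5 CPM in A17α-MHCKO + DOX. For Tnni2 (fast skeletal troponin I) it was -1.28 (SE 0.51, edgeR adjusted p = 0.828), with at most 113 counts in a library. Gja5 met the limits without any 1 library (-2.07 to -1.37), and Tnni2 no longer did without 6 of the 12, A17fl/fl + NS replicate 1 or 3, A17fl/fl + DOX replicate 1 or 3, A17α-MHCKO + NS replicate 2 or A17α-MHCKO + DOX replicate 2 (-1.26 to -1.05). Neither passed an adjusted p of 0.05. No gap test for an outlying sample was run on single genes, since each group held 3 samples.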

How the results depend on the processing

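Members past the limits numbered 0 for DOX in A17fl/fl mice, genotype after NS and the interaction under each of DESeq2, RLE and upper-quartile scaling, both other filters, the CPM limit, the fit of only the groups compared (not run for the interaction) and the replicate block. For DOX in A17α-MHCKO mice the count of 1 became 0 with DESeq2, with 10 counts required in every library (which removes Bmp10) and with the replicate block. Under DESeq2 a member without a p was taken as not called. In the same comparison the count of 1 stood with RLE or upper-quartile scaling, without a filter and with the CPM limit. The count became 6 when only the groups compared were fitted, where 1.06% of all tested genes were called. For genotype after DOX the count of 0 became 1 (Bmp10) without a filter and with only the groups compared. In these 0.138% and 0.28% of all tested genes were called. Leaving out each library in turn gave 0 to 7 members for DOX in A17fl/fl, DOX in A17α-MHCKO, genotype after NS and the interaction, and 0 to 1 for genotype after DOX; the cause was not tested. Same-numbered samples did not deviate together (correlations of -0.104 to 0.219), so the numbers were not taken as pairs; the replicate block moved the call of 1 member, Bmp10, and took all genes called for DOX in A17fl/fl mice from 454 to 281. Fitting only the groups compared took all genes called to 235 for DOX in A17fl/fl, from 106 to 164 for DOX in A17α-MHCKO and from 482 to 266 for genotype after NS. The CPM limit took them to 180 for DOX in A17α-MHCKO and from 33 to 69 for genotype after DOX. The median Spearman between atrial members over 12 libraries, 0.759, was 0.772 with RLE, 0.783 with a prior count of 0.5, 0.749 as Pearson's r and 0.695 to 0.927 without each library. Left-out libraries, chosen for list genes after seeing the data, ended the call in 16 fits and left it in 80, and DESeq2, RLE and the block left it in all 24 of theirs. Counts near 0 limit Bmp10.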
